A study of Mus musculus with 18 samples.

Results

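The genes described here were the heat shock proteins, the J-domain proteins (HSP40, symbols beginning with *Dnaja*, *Dnajb* or *Dnajc*) and the CCT chaperonin subunits measured in purified splenic B cells. Members were taken by symbol alone: 83 of the 23420 listed genes matched, and 7 chaperones of the endoplasmic reticulum were left out by name, which kept 76 genes. Of these, 26 had *Hsp* symbols, 41 had *Dnaj* symbols and 9 had *Cct* symbols.

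RNA-seq compared B cells of lupus-prone MRL/lpr mice, which all carry the *Fas* lpr mutation, before and after 4 h of culture with an agonist of an endosomal Toll-like receptor (TLR). The study asked whether the TIR domain, the part of a TLR that signals, sets the quality of the B cell response. There were 6 groups of 3 libraries. In the first arm, B cells of female *Tlr7*-/- mice, either *Tlr9*+/- (Tlr9het) or *Tlr997*, were left unstimulated or given the DNA agonist CpG at 10 µg/ml. TLR997 is TLR9 with the TIR domain of TLR7 in place of its own. In the second arm, B cells of male *Tlr779* *Tlr9*-/- mice, in which TLR7 has the TLR9 TIR domain, were cultured without or with the TLR7 agonist CL097 at 5 µg/ml. The labels give an age of 5 to 7 weeks for all mice, while the study's methods give 5 weeks for the first arm and 5 to 7 for the second. Both chimeric alleles were made with CRISPR in MRL/lpr mice. B cells had been purified from spleen by bead depletion of other cells. Wild-type TLR7 controls were not analysed here. Sex, genotype, agonist and perhaps age changed together between the arms, so their parts cannot be told apart, and the arms were not tested against each other. The treatment description writes the first arm's control as *Tlr9*-/- while the sample titles and descriptions give a *Tlr9* heterozygote, and the latter were followed.

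Chaperones bind polypeptides that are not yet folded, or no longer folded, and release them in cycles of ATP hydrolysis. HSP70 proteins take substrates from J-domain proteins and are reset by nucleotide exchange factors, HSP90 acts late on receptors and kinases, and the CCT (TRiC) ring folds actin and tubulin among other clients. The inducible members are the classical targets of heat shock factor 1, while the constitutive ones serve protein synthesis in growing cells. B cells that receive a TLR signal leave quiescence and enlarge before they divide.

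The label of cytosolic chaperones fitted only part of the list. The 3 genes of the mitochondrial folding machinery (*Hspd1*, *Hspe1*, *Hspa9*) and J proteins of mitochondria, endoplasmic reticulum membrane, nucleus and ribosome also matched the symbols. Of the 76 members, 13 were above 0 log2 CPM (CPM, counts scaled to a common library total) in none of the 18 libraries. At least 3 libraries over 0 log2 CPM were required for testing, which 59 members met in the first arm and 58 in the second, while 17 met it in neither. The small heat shock proteins were nearly absent: of 7, only *Hspb6* could be tested. *Hspb1* (HSP25) was at -2.08, -0.50 and -2.19 log2 CPM in unstimulated Tlr9het libraries, -1.12, -3.42 and -0.97 with CpG, -1.94, -3.92 and -4.91 and -1.41, 0.07 and -1.13 in Tlr997, and -3.65, -3.25 and -3.64 and -1.15, -1.42 and -1.05 in Tlr779. Only 1 of its 18 values exceeded 0, so no comparison was made.

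Across all genes, replicate libraries correlated at Pearson's r of 0.944 to 0.989 over 11676 genes, the lowest value involving replicate 3 of unstimulated Tlr997. Summed levels of 6 B cell markers were 5520 to 7340 CPM without and 1650 to 3160 CPM with agonist, and each of the 6 was at or above 5.20 log2 CPM in every library. Of these 6, limma called 5, 3 and 4 lower and 1, 0 and 0 higher after stimulation of Tlr9het, Tlr997 and Tlr779. Among all genes, 28.2%, 26% and 23.6% were called lower and 29.7%, 29.6% and 22.7% higher. With CpG, 3 of the 6 were called higher in Tlr997 than in Tlr9het and 0 lower, beside 1.25% and 1.47% of all genes. The T and NK cell marker lists summed to at most 21.2 and 8.23 CPM, macrophage and monocyte markers to between 91.1 and 461 CPM, neutrophil markers to between 19.0 and 173 CPM, plasmacytoid dendritic cell markers to between 177 and 438 CPM and plasma cell markers to between 285 and 1210 CPM. Single genes weighed heavily in some sums. Of the plasmacytoid dendritic cell markers, the highest values in any library were 8.63 log2 CPM for *Tcf4*, 6.57 for *Bst2*, 2.53 for *Siglech* and 1.58 for *Ccr9*. Of the plasma cell markers, *Igj* reached 9.67 and *Mzb1* 7.48. Erythroid markers summed to between 108 and 3870 CPM and varied within groups. The part of these shifts in the results was not tested. In bulk RNA, fewer cells of a type and less RNA per cell cannot be told apart.

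Heat shock factors bind arrays of the unit GAA in alternating orientation. The letters GAANNTTC or TTCNNGAA (adjoining units, each pattern being its own reverse complement) and the longer GAANNTTCNNGAA or TTCNNGAANNTTC (3 units, which contains overlapping matches of the shorter one) were searched on both strands of RefSeq promoter windows of GRCm38.p6, from 250 bases before to 50 after an annotated start. Windows were present for 62 members. *Hsp90aa1*, *Hsp90ab1*, *Hspa8*, *Hspa9* and *Cct4* were among those without a window, so the patterns could not be searched there. The shorter pattern was in a window of 19 members (30.6%) and of 17% of all 27025 genes with a window, and the longer one in 4 members (6.45%) and 0.662% of all genes. Those 4 were *Hspd1*, *Hspe1*, *Hsph1* and *Dnajb6*. The E-box CACGTG was in a window of 6 members (9.68%) and of 8.09% of all genes. A gene with several windows had more chances of a match. The matches describe the promoters, and whether they bear on the responses that follow was not tested. Capitals mark the GAA arrays, and positions count from the annotated start of the window as 0.

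The *Hspd1* and *Hspe1* genes lie head to head, with 216 bases between the *Hspe1* start and 1 of the annotated *Hspd1* starts, and share 1 array of 4 alternating units, printed on the *Hspe1* strand from chr1:55088052-55088081 (plus strand, -96 to -67 of *Hspe1*).
Hspe1 and Hspd1: cggtccgTTCTAGAACCTTCCGGAAggccc
The *Dnajb6* array lay at chr5:29735842-29735871 (plus strand, -56 to -27).
Dnajb6: tcagctccgaGAATCTTCCGGAAcgctaga
*Hsph1* had a pair of units upstream of its start, at chr5:149636352-149636381 (minus strand, -45 to -16), and an array of 3 units just after it, at chr5:149636287-149636306 (minus strand, 30 to 49).
Hsph1 upstream: tgggtagaatctTTCTCGAAggctcgagaa
Hsph1 downstream: tgcagaTTCTGGAAAGTTCt

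The stress-inducible HSP70 genes *Hspa1a* and *Hspa1b*, neighbours on chromosome 17, had identical letters over all 80 bases printed, from -140 to -61 of each start, and at 296 of the 300 positions of their windows. They are shown from chr17:34972217-34972296 and chr17:34959299-34959378 (both minus strand).
Hspa1a: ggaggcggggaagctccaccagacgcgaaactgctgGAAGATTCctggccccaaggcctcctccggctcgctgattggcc
Hspa1b: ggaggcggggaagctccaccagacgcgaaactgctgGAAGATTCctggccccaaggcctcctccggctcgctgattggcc
Of the CCT genes, *Cct2* and *Cct5* had a pair of units upstream of the start, shown from chr10:117063376-117063455 (minus strand, -80 to -1) and chr15:31601863-31601892 (minus strand, -46 to -17).
Cct2: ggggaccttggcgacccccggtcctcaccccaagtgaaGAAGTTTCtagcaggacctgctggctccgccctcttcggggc
Cct5: aacagcggccgaTTCCAGAAgctactctgc
*Cct6a* had a pair after its start (24 to 31), while *Cct3*, *Dnajb1* and *Hspa4l* had neither pattern in their windows.

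Together, the 76 genes took up a larger part of the summed CPM after stimulation in every genotype. Their share of summed CPM was 1.19%, 1.16% and 1.18% in unstimulated Tlr9het libraries and 2.22%, 2.26% and 2.29% with CpG. In Tlr997 it was 1.11%, 1.22% and 1.17% without and 2.35%, 2.53% and 2.29% with CpG. In Tlr779 it was 1.18%, 1.16% and 1.16% without and 1.98%, 1.96% and 1.99% with CL097. Stimulated and unstimulated libraries did not overlap in any genotype, and the group means were 1.18% ± 0.02 against 2.26% ± 0.03, 1.17% ± 0.05 against 2.39% ± 0.13 and 1.17% ± 0.01 against 1.98% ± 0.02 (SD, n = 3). *Hsp90ab1* alone made up 24.3% to 33.3% of the members' CPM. These are shares of summed deposited values, which were quantile-normalized, and not of counted reads. A change of total RNA per cell would not be visible in them.

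**Figure D1:**
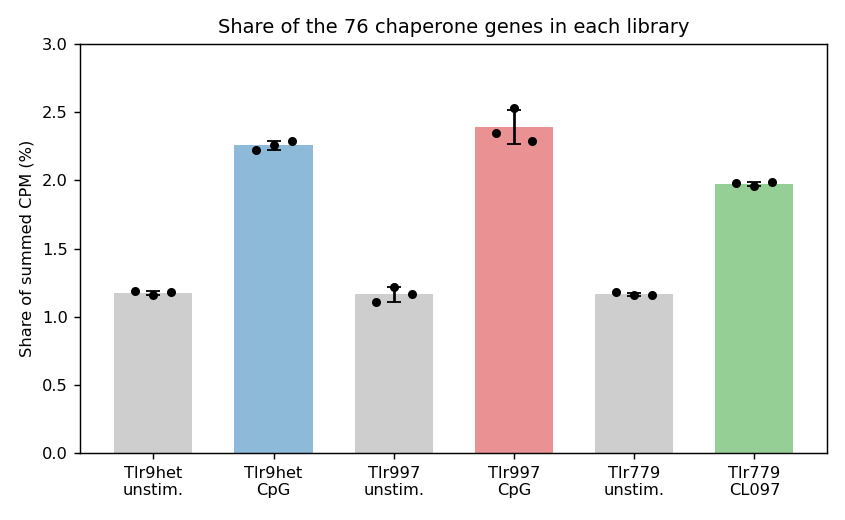
Share of summed CPM, in percent, taken by the 76 chaperone genes in each of the 18 libraries (points), with bars for the mean and whiskers for the SD of 3 libraries per group. Unstimulated libraries lay between 1.11% and 1.22%, those with CpG between 2.22% and 2.53%, and those with CL097 between 1.96% and 1.99%.

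A member was called at an adjusted p under 0.05 (limma, Benjamini-Hochberg over all genes tested) with an absolute log2 fold change over 0.5. After CpG, 32 of 59 tested members were higher and 7 lower in Tlr9het, beside 29.7% and 28.2% of all 11494 genes, and the median log2 fold change was 0.77 for members and 0.04 for all genes. In Tlr997, 36 were higher and 8 lower, beside 29.6% and 26% of all genes, with medians of 0.80 and 0.07. After CL097 in Tlr779, 27 of 58 were higher and 5 lower, beside 22.7% and 23.6% of 11082 genes, with medians of 0.48 and -0.02. The share of members called higher (54.2%, 61% and 46.6%) was thus above that of all genes in each response, and the share called lower (11.9%, 13.6% and 8.62%) was below it. For every called member, the 3 stimulated libraries lay outside the range of the 3 unstimulated ones, which a call with so few libraries makes likely. The same held for 11 of 20, 5 of 15 and 12 of 26 members not called in Tlr9het, Tlr997 and Tlr779. Its share over all genes was not counted. Of the 58 members tested in all 3 responses, 26 were called higher in each, 5 lower in each, 14 in none and 0 in opposite directions. This overlap was not counted over all genes, so it cannot show whether members differed from other genes in it. Of the 19 members with a promoter window among the 26, 9 (47.4%) held the shorter GAA pattern and 4 (21.1%) the longer one. *Hspd1* and *Hspe1* count separately in both, although they share 1 array. Of the 4 with a window among the 5 lower ones, 0 held either. The share of other genes called higher that held the patterns was not counted, and whether the patterns bear on the responses was not tested. Among the 13 with a window that were called in no response, 3 (23.1%) held the shorter pattern and 0 the longer one.

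**Figure D2:**
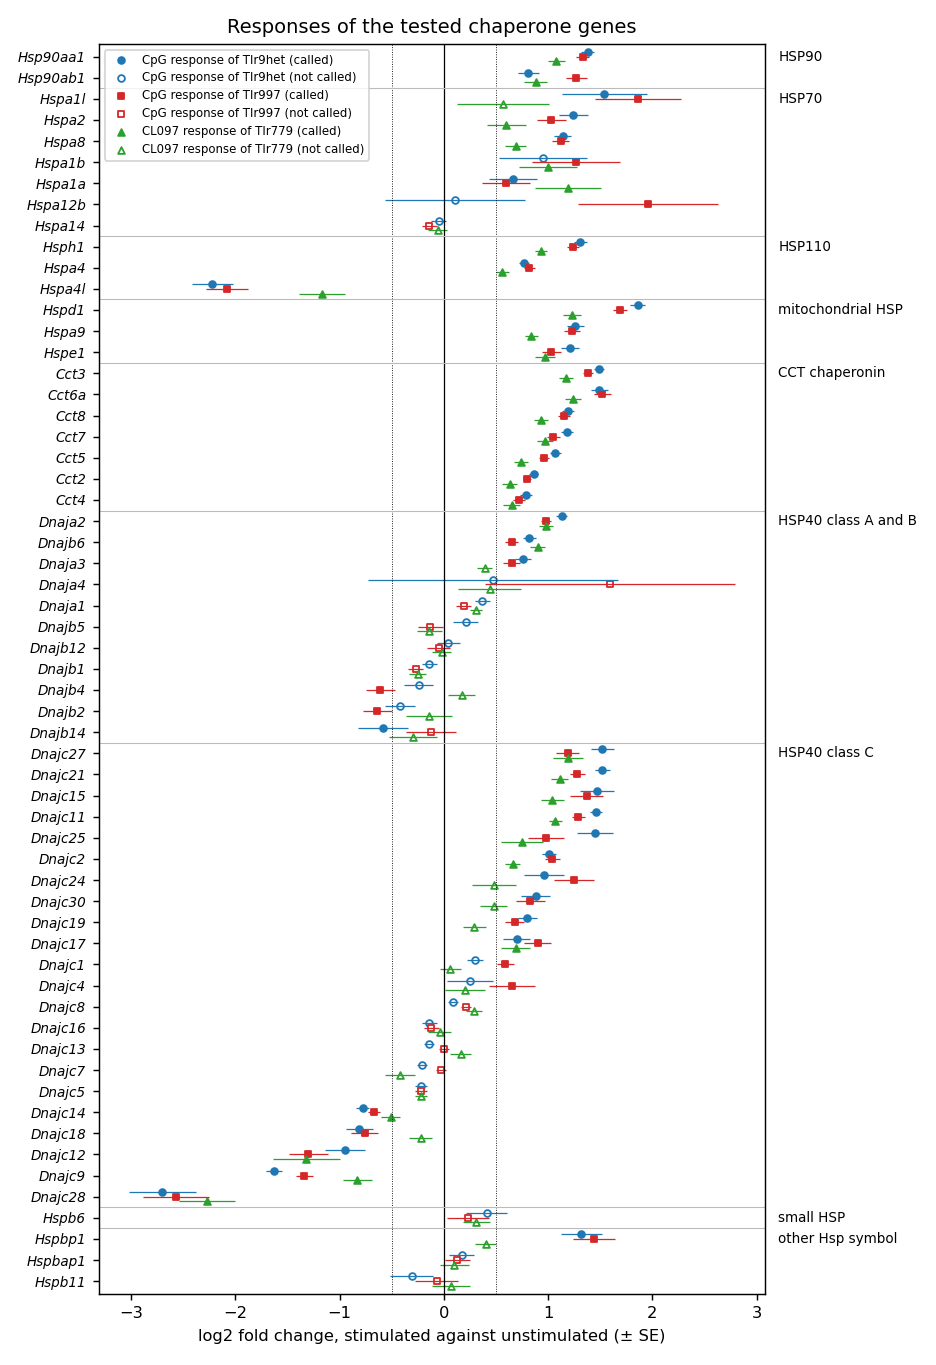
Log2 fold change of each tested member, stimulated against unstimulated, with its SE, for CpG in Tlr9het (circles), CpG in Tlr997 (squares) and CL097 in Tlr779 (triangles). Filled symbols were called, open ones were not, and dotted lines mark ±0.5. All tested CCT, HSP90 and mitochondrial HSP genes lie to the right in all 3 responses, the class A and B J proteins scatter around 0, and *Hspa4l*, *Dnajc9* and *Dnajc28* lie far to the left.

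The HSP90 genes both rose. *Hsp90aa1* was at 9.3, 9.24 and 9.15 log2 CPM in the unstimulated and 10.62, 10.62 and 10.57 in the CpG libraries of Tlr9het, at 9.14, 9.3 and 9.11 and 10.43, 10.60 and 10.52 in those of Tlr997, and at 9.18, 9.22 and 9.06 and 10.12, 10.27 and 10.29 in the unstimulated and CL097 libraries of Tlr779. It encodes the inducible HSP90 alpha, and it rose by 1.38 ± 0.06 (adjusted p = 3.43e-10), 1.33 ± 0.06 (6.1e-10) and 1.08 ± 0.08 (1.44e-05) in Tlr9het, Tlr997 and Tlr779 on the log2 scale. *Hsp90ab1* was at 11.74, 11.60 and 11.79 log2 CPM in the unstimulated and 12.45, 12.50 and 12.62 in the CpG libraries of Tlr9het, at 11.40, 11.60 and 11.71 and 12.92, 12.98 and 12.62 in those of Tlr997, and at 11.74, 11.46 and 11.71 and 12.45, 12.50 and 12.62 in the unstimulated and CL097 libraries of Tlr779. This gene, which encodes the constitutive HSP90 beta, rose by 0.81 ± 0.10 (adjusted p = 9.82e-06), 1.27 ± 0.10 (1.25e-07) and 0.88 ± 0.11 (0.000179) in the same order. Per kilobase of exon (GENCODE M21), *Hsp90ab1* had the highest level of all members, 10.13 log2 CPM per kb in unstimulated Tlr9het, followed by *Hspa8* (8.19), *Cct2* (7.85), *Cct5* (7.36) and *Hsp90aa1* (7.25). *Hsp90ab1* ranked between 2 and 11 among all genes of a library. Quantile normalization sets values by rank. In all 8 pairs of libraries that shared a replicate number and a rank of *Hsp90ab1* its deposited values were exactly equal. This held in 0 of the 37 pairs that shared a number but not the rank. Between replicate numbers, equal ranks did not give equal values. In Tlr9het with CpG, rank 3 held 12.45, 12.50 and 12.62 log2 CPM in replicates 1, 2 and 3. For *Hspa8*, further down the order, 1 of 2 pairs with the same number and rank had equal values.

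Among HSP70 genes, the constitutive *Hspa8* (HSC70) had the highest level per kilobase, and the stress-inducible genes stayed low. *Hspa8* was at 10.34, 10.28 and 10.28 log2 CPM in the unstimulated and 11.41, 11.44 and 11.47 in the CpG libraries of Tlr9het, at 10.14, 10.39 and 10.17 and 11.19, 11.49 and 11.37 in those of Tlr997, and at 10.31, 10.29 and 10.30 and 11.19, 10.78 and 11.01 in the unstimulated and CL097 libraries of Tlr779. It rose by 1.14 ± 0.08 (adjusted p = 2.05e-08), 1.12 ± 0.08 (3.04e-08) and 0.69 ± 0.10 (0.000676) in the order used above. *Hspa1a* was at 1.84, 1.41 and 1.93 log2 CPM in the unstimulated and 2.64, 2.07 and 2.44 in the CpG libraries of Tlr9het, at 2.19, 2.14 and 1.70 and 2.35, 2.80 and 2.67 in those of Tlr997, and at 1.06, 1.49 and 1.38 and 2.61, 3.03 and 1.85 in the unstimulated and CL097 libraries of Tlr779. This gene was called higher in all 3 responses, by 0.66 ± 0.23 (adjusted p = 0.02), 0.60 ± 0.23 (0.0328) and 1.19 ± 0.32 (0.0122), but its levels with agonist reached only 3.03 log2 CPM. *Hspa1b* was at 1.87, 1.07 and 1.70 log2 CPM in the unstimulated and 2.86, 2.01 and 2.63 in the CpG libraries of Tlr9het, at 1.86, 1.64 and 0.00 and 2.36, 2.33 and 2.63 in those of Tlr997, and at 1.13, 2.06 and 1.68 and 2.54, 2.95 and 2.39 in the unstimulated and CL097 libraries of Tlr779. *Hspa1b* changed by 0.95 ± 0.42 (adjusted p = 0.0577), 1.27 ± 0.42 (0.0158) and 1.00 ± 0.28 (0.015) and was not called in Tlr9het, where a replicate block within genotype gave an adjusted p of 0.0312. The calls of both genes depended on single libraries and on settings. In Tlr9het the *Hspa1a* call was lost without CpG replicate 1 or 3 or unstimulated replicate 2 (adjusted p 0.0554 to 0.0914), and in Tlr997 without CpG replicate 2 or 3 or unstimulated replicate 3 (0.08 to 0.112). In Tlr997 it was also lost with no filter (0.0598), with only the groups compared (0.0579), with all 18 libraries in 1 model (0.0599), with array weights (0.0583) and, by the fold, with a pseudocount of 1 CPM (0.50). That of *Hspa1b* was lost in Tlr997 without CpG replicate 3 (0.0509) and in Tlr779 without CL097 replicate 2 (0.0541), and gained in Tlr9het without CpG replicate 2 (0.0383). Of their 75-base windows, 54.2% in *Hspa1a* and 55.8% in *Hspa1b* are shared with another annotated gene, mainly each other, so the counting may not fully separate them.

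The remaining HSP70 genes were of low level or moved little. *Hspa2* rose by 1.24 ± 0.14, 1.03 ± 0.14 and 0.60 ± 0.19. *Hspa1l*, a testis-type HSP70 gene, was at 0.57, 0.47 and -0.44 and 1.35, 1.64 and 2.22 log2 CPM without and with CpG in Tlr9het and at -0.17, -0.52 and -1.31 and 0.88, 1.40 and 1.33 in Tlr997. It was called higher there, by 1.54 ± 0.41 and 1.86 ± 0.41, and in Tlr779 its difference was 0.57 ± 0.44 (adjusted p = 0.296, 95% interval -0.46 to 1.60). Without CpG only the Tlr9het values of 0.57 and 0.47 exceeded 0 in the first arm. *Hspa1l* thus passed the filter there only through the CpG libraries, and its CpG differences are a description and not support. It counts among the 32 and 36 members called higher in Tlr9het and Tlr997. *Hspa12b*, a distant relative, passed the filter only through the 3 CpG libraries of Tlr997, so its difference there is a description and not support. It was at -2.68, -1.24 and -1.37 without and 0.14, 0.24 and 0.20 with CpG in Tlr997, and at -1.17, -1.03 and -1.77 and -0.50, -0.54 and -2.60 in Tlr9het, and it was not tested in Tlr779. It counts among the 36 members called higher in Tlr997, a call that was lost without unstimulated replicate 1 (adjusted p = 0.0714). *Hspa14*, the ribosome-associated HSP70, had differences of -0.05, -0.14 and -0.06, with 95% intervals of -0.21 to 0.11, -0.30 to 0.02 and -0.27 to 0.14.

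**Figure D3:**
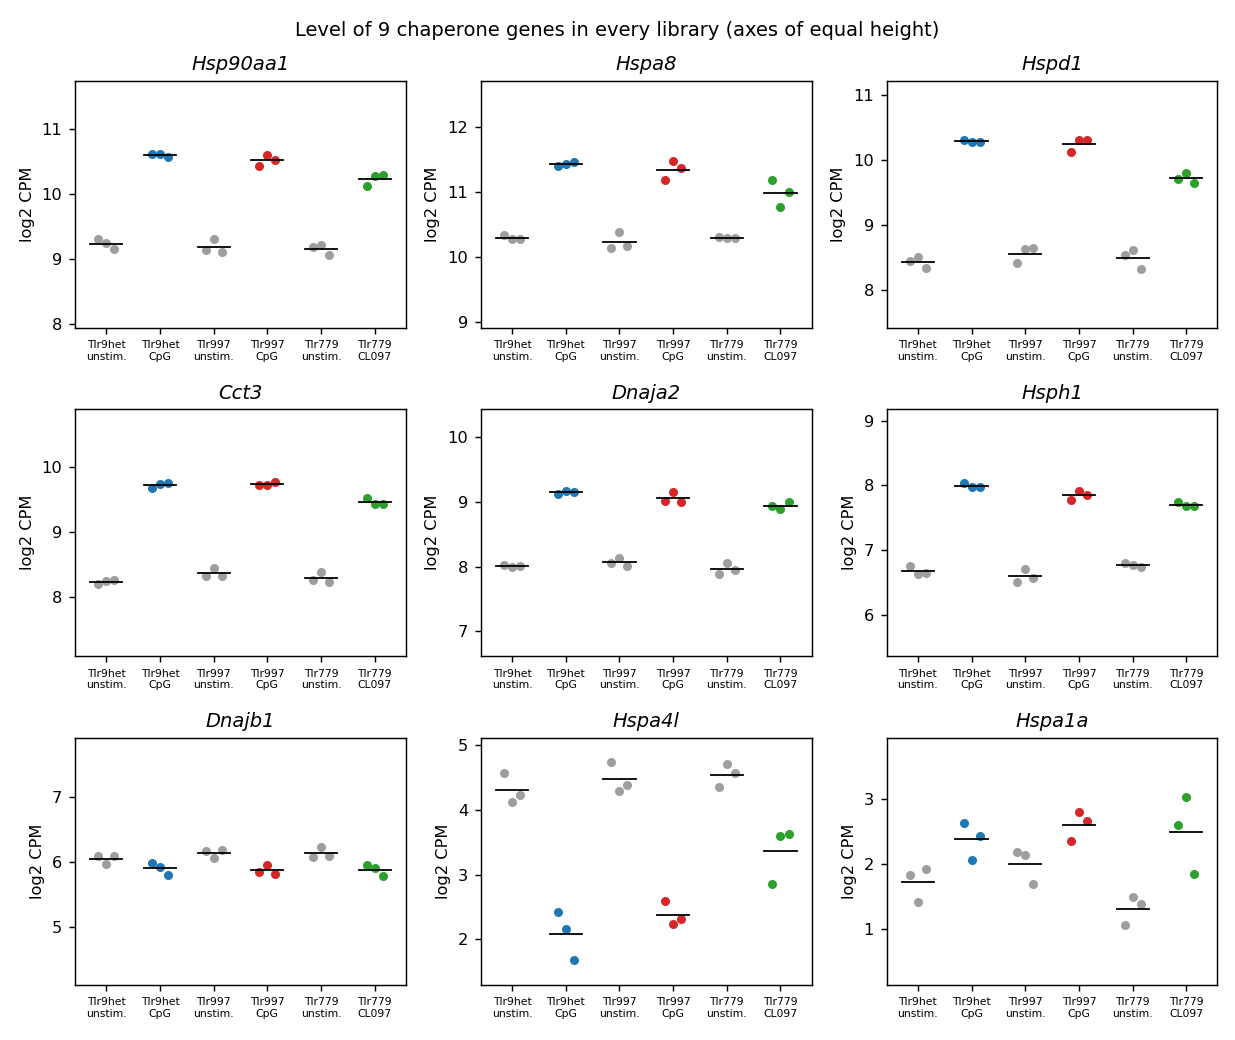
Log2 CPM of 9 members in each of the 18 libraries (points), with a line at the mean of 3 libraries, for the 6 groups. The vertical axes differ in position but span the same height. *Hsp90aa1*, *Hspa8*, *Hspd1*, *Cct3*, *Dnaja2* and *Hsph1* stand about 1 log2 unit or more higher in most stimulated groups, *Dnajb1* is nearly level, *Hspa4l* falls, and *Hspa1a* is low with wide scatter.

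HSP110 proteins exchange the nucleotide of HSP70, and their 3 genes split. *Hsph1* (HSP105) rose by 1.31 ± 0.06 (adjusted p = 5.62e-10), 1.24 ± 0.06 (1.22e-09) and 0.93 ± 0.06 (9.48e-06), from 6.51 to 6.81 log2 CPM across all unstimulated libraries to 7.68 to 8.03 across all stimulated ones. *Hspa4* (APG-2) rose by 0.77 ± 0.05 (adjusted p = 2.11e-08), 0.82 ± 0.05 (1.24e-08) and 0.56 ± 0.06 (8.45e-05). Their relative *Hspa4l* (APG-1) fell. *Hspa4l* was at 4.56, 4.12 and 4.23 log2 CPM in the unstimulated and 2.42, 2.16 and 1.68 in the CpG libraries of Tlr9het, at 4.73, 4.29 and 4.38 and 2.59, 2.24 and 2.32 in those of Tlr997, and at 4.35, 4.70 and 4.56 and 2.86, 3.60 and 3.63 in the unstimulated and CL097 libraries of Tlr779. The log2 fold changes of *Hspa4l* were -2.22 ± 0.20 (adjusted p = 2.99e-07), -2.08 ± 0.20 (6.34e-07) and -1.17 ± 0.22 (0.00206), with no overlap of stimulated and unstimulated libraries in any genotype.

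The mitochondrial chaperonin rose in every stimulated group. *Hspd1* was at 8.44, 8.50 and 8.34 log2 CPM in the unstimulated and 10.30, 10.28 and 10.28 in the CpG libraries of Tlr9het, at 8.41, 8.62 and 8.64 and 10.12, 10.31 and 10.30 in those of Tlr997, and at 8.53, 8.61 and 8.32 and 9.70, 9.80 and 9.64 in the unstimulated and CL097 libraries of Tlr779. *Hspd1* (HSP60) had the largest increase of all members in Tlr9het, 1.86 ± 0.07 (adjusted p = 5.7e-11), 1.69 ± 0.07 (1.82e-10) and 1.23 ± 0.09 (1.61e-05), or 3.63-fold in Tlr9het, and stimulated libraries all lay above unstimulated ones. Its lid *Hspe1* (HSP10) rose by 1.21 ± 0.09 (adjusted p = 2.92e-08), 1.03 ± 0.09 (1.84e-07) and 0.97 ± 0.10 (8.12e-05), and the matrix HSP70 gene *Hspa9* (mortalin) by 1.26 ± 0.08 (adjusted p = 4.74e-09), 1.23 ± 0.08 (7.41e-09) and 0.84 ± 0.06 (1.87e-05). Some J proteins known from mitochondria were also called higher in all 3 responses. The membrane protein gene *Dnajc11* rose by 1.46 ± 0.06 (adjusted p = 6.3e-11), 1.29 ± 0.06 (2.48e-10) and 1.07 ± 0.06 (7.64e-06) and *Dnajc15*, of the import motor, by 1.47 ± 0.16 (adjusted p = 1.42e-06), 1.37 ± 0.16 (3.31e-06) and 1.04 ± 0.11 (8.81e-05). *Dnaja3*, *Dnajc19* and *Dnajc30* were called higher with CpG in both genotypes but not with CL097, at 0.39 ± 0.07, 0.29 ± 0.11 and 0.48 ± 0.13.

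All 7 tested CCT subunits were called higher in each response, with median log2 fold changes of 1.18, 1.05 and 0.93. *Cct3* was at 8.20, 8.24 and 8.26 log2 CPM in the unstimulated and 9.68, 9.74 and 9.75 in the CpG libraries of Tlr9het, at 8.32, 8.45 and 8.33 and 9.73, 9.73 and 9.78 in those of Tlr997, and at 8.26, 8.39 and 8.23 and 9.52, 9.44 and 9.44 in the unstimulated and CL097 libraries of Tlr779. *Cct3* rose by 1.49 ± 0.05 (adjusted p = 1.72e-11), 1.38 ± 0.05 (4.49e-11) and 1.17 ± 0.07 (6.69e-06). *Cct6a* was at 7.78, 7.79 and 7.82 log2 CPM in the unstimulated and 9.21, 9.28 and 9.35 in the CpG libraries of Tlr9het, at 7.69, 8.01 and 7.75 and 9.2, 9.45 and 9.38 in those of Tlr997, and at 7.72, 7.88 and 7.69 and 9.09, 9.03 and 8.89 in the unstimulated and CL097 libraries of Tlr779. *Cct6a* rose by 1.49 ± 0.08 (adjusted p = 1.87e-09), 1.52 ± 0.08 (1.88e-09) and 1.24 ± 0.08 (1.08e-05). Of the 7, *Cct4* had the smallest values with CpG (0.79 ± 0.06 and 0.72 ± 0.06) and *Cct2* with CL097 (0.63 ± 0.07), against 0.86 ± 0.04 and 0.80 ± 0.04 for *Cct2* with CpG. *Cct5*, *Cct7* and *Cct8* lay between, at 1.07, 1.18 and 1.19 in Tlr9het, 0.96, 1.05 and 1.15 in Tlr997 and 0.74, 0.97 and 0.93 in Tlr779. *Tcp1*, which encodes the alpha subunit of the same ring but has no *Cct* symbol, rose by 0.92 ± 0.05, 0.91 ± 0.05 and 0.82 ± 0.06. The testis-type *Cct6b* and the gene *Cct8l1* stayed below 0 log2 CPM in all libraries and were not tested.

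Class A and B J proteins, the general partners of HSP70, did not move as a group. In the 3 responses, 3, 3 and 2 of 11 tested were called higher and 1, 2 and 0 lower. Among all genes, 29.7%, 29.6% and 22.7% were called higher and 28.2%, 26% and 23.6% lower. The part of this class called higher was thus near that of all genes, and the part called lower was smaller. *Dnaja2* rose by 1.13 ± 0.05 (adjusted p = 2.96e-10), 0.98 ± 0.05 (1.43e-09) and 0.98 ± 0.07 (1.42e-05) and *Dnajb6*, a suppressor of aggregation, by 0.82 ± 0.06 (adjusted p = 3.95e-08), 0.65 ± 0.06 (4.99e-07) and 0.90 ± 0.07 (1.63e-05). The other main partners differed. *Dnaja1* was at 6.84, 6.93 and 6.79 log2 CPM in the unstimulated and 7.23, 7.28 and 7.15 in the CpG libraries of Tlr9het, at 7.00, 6.98 and 7.14 and 7.12, 7.26 and 7.31 in those of Tlr997, and at 6.72, 6.82 and 6.81 and 7.07, 7.14 and 7.09 in the unstimulated and CL097 libraries of Tlr779. *Dnaja1* (HDJ2) changed by 0.37 ± 0.07 (adjusted p = 0.000249), 0.19 ± 0.07 (0.0208) and 0.31 ± 0.06 (0.00316), which passed the adjusted p but not the fold in each response. *Dnajb1* was at 6.08, 5.96 and 6.09 log2 CPM in the unstimulated and 5.98, 5.91 and 5.80 in the CpG libraries of Tlr9het, at 6.16, 6.06 and 6.18 and 5.84, 5.94 and 5.81 in those of Tlr997, and at 6.07, 6.23 and 6.09 and 5.94, 5.90 and 5.78 in the unstimulated and CL097 libraries of Tlr779. *Dnajb1* (HSP40), a classical heat shock gene, was at -0.14 ± 0.07 (adjusted p = 0.0762), -0.27 ± 0.07 (0.00331) and -0.25 ± 0.08 (0.0243) and was not called. Its libraries overlapped in Tlr9het, while in Tlr997 and Tlr779 all libraries with agonist lay slightly below those without. *Dnajb2* and *Dnajb4* were called lower with CpG in Tlr997 only (-0.64 ± 0.14 and -0.61 ± 0.14), against -0.42 ± 0.14 and -0.24 ± 0.14 in Tlr9het, and the differences of these responses were -0.22 (-0.64 to 0.21) and -0.37 (-0.81 to 0.07). *Dnajb14*, of the endoplasmic reticulum membrane, was called lower in Tlr9het (-0.58 ± 0.24, adjusted p = 0.0461), a call that was lost with a replicate block within genotype (0.0578) and without 5 of the 6 libraries compared, that is without any of the CpG libraries or without unstimulated replicate 2 or 3 (0.0504 to 0.172).

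Class C J proteins, which share little beyond the J domain and mostly have specialised sites, held both the largest fall and several of the largest rises. Of 22 tested, 10, 12 and 7 were called higher and 5, 5 and 4 lower. Beside them, 29.7%, 29.6% and 22.7% of all genes were called higher and 28.2%, 26% and 23.6% lower. The part of class C called lower was thus near that of all genes. *Dnajc21*, which acts in maturation of the large ribosomal subunit, rose by 1.52 ± 0.07 (adjusted p = 2.77e-10), 1.28 ± 0.07 (1.8e-09) and 1.11 ± 0.08 (1.22e-05), from 5.72, 5.74 and 5.69 log2 CPM to 7.22, 7.24 and 7.24 in Tlr9het. *Dnajc2*, the J protein of the ribosome-associated complex, rose by 1.01 ± 0.07, 1.04 ± 0.07 and 0.66 ± 0.07. *Dnajc27*, a Rab-like GTPase with a J domain, rose by 1.52 ± 0.11 (adjusted p = 2e-08), 1.19 ± 0.11 (2.81e-07) and 1.19 ± 0.14 (0.000178). Stimulated libraries of all 3 genes lay above unstimulated ones in each genotype.

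The class C genes that fell in every response were *Dnajc28*, *Dnajc9*, *Dnajc12* and *Dnajc14*. *Dnajc28* was at 2.00, 2.34 and 1.94 log2 CPM in the unstimulated and -0.16, -0.78 and -0.87 in the CpG libraries of Tlr9het, at 2.33, 2.09 and 2.86 and -0.32, 0.19 and -0.29 in those of Tlr997, and at 2.41, 2.34 and 1.98 and -0.14, 0.28 and -0.21 in the unstimulated and CL097 libraries of Tlr779. *Dnajc28*, a low gene, had the largest fall of all members, -2.70 ± 0.32 (adjusted p = 3.93e-06), -2.57 ± 0.32 (7.07e-06) and -2.27 ± 0.27 (0.000181). With agonist, only the Tlr997 value of 0.19 and the Tlr779 value of 0.28 exceeded 0. *Dnajc28* thus passed the filter only through the unstimulated libraries, and its fall is a description and not support. It counts among the 5 members called lower in all 3 responses. *Dnajc9* was at 7.22, 7.24 and 7.13 log2 CPM in the unstimulated and 5.58, 5.62 and 5.50 in the CpG libraries of Tlr9het, at 7.38, 7.03 and 7.24 and 5.99, 5.83 and 5.83 in those of Tlr997, and at 7.3, 7.26 and 7.28 and 6.10, 6.57 and 6.66 in the unstimulated and CL097 libraries of Tlr779. *Dnajc9*, whose protein is a chaperone of histones, fell in every genotype with log2 fold changes of -1.63 ± 0.08 (adjusted p = 8.37e-10), -1.34 ± 0.08 (7.58e-09) and -0.83 ± 0.14 (0.00104). *Dnajc12* was at -0.95 ± 0.19, -1.30 ± 0.19 and -1.32 ± 0.32, and *Dnajc14*, of the endoplasmic reticulum membrane, at -0.78 ± 0.06, -0.67 ± 0.06 and -0.51 ± 0.09. The *Dnajc14* call with CL097 was the closest to the fold threshold and was lost without CL097 replicate 1 (-0.42) or without unstimulated replicate 2 or 3 (-0.48 and -0.49). *Dnajc18*, also of that membrane, fell with CpG (-0.81 ± 0.13 and -0.76 ± 0.13) and was at -0.22 ± 0.11 with CL097 (95% interval -0.48 to 0.03).

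Some J proteins were called in no response. *Dnajc5* (cysteine string protein) had log2 fold changes of -0.22 ± 0.06, -0.22 ± 0.06 and -0.22 ± 0.06, and *Dnajc13*, an endosomal protein, had 95% intervals of -0.25 to -0.03, -0.10 to 0.11 and -0.07 to 0.39. *Dnajc7* was at -0.21 ± 0.05 and -0.03 ± 0.05 with CpG and -0.42 ± 0.14 with CL097. The nucleotide exchange factor *Hspbp1* rose with CpG, by 1.32 ± 0.20 and 1.44 ± 0.20, and was at 0.40 ± 0.10 with CL097, where its adjusted p of 0.0088 passed but its fold did not. *Hspb6*, the only small heat shock protein tested, was at 0.41 ± 0.20, 0.23 ± 0.20 and 0.31 ± 0.13 and was not called.

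Partners outside the symbols were read from lists. Of 28 genes listed as HSP70 and HSP90 cochaperones, all tested, 15, 19 and 14 (53.6%, 67.9% and 50%) were called higher and 3, 2 and 2 (10.7%, 7.14% and 7.14%) lower in Tlr9het, Tlr997 and Tlr779. Among all genes, 29.7%, 29.6% and 22.7% were called higher and 28.2%, 26% and 23.6% lower. The list's median log2 fold changes were 0.62, 0.69 and 0.50, against 0.04, 0.07 and -0.02 for all genes. The list held *Chp1*, whose product is a calcineurin-like calcium-binding protein and not a known cochaperone, and which was called lower in all 3 responses. Leaving it out, a choice made after its values were seen, gave 15, 19 and 14 of 27 higher, 2, 1 and 1 lower, and medians of 0.62, 0.75 and 0.53. *Ppid* (cyclophilin 40) rose by 1.92 ± 0.09, 1.85 ± 0.09 and 1.69 ± 0.08, and *Stip1* (HOP), which links HSP70 to HSP90, by 1.13 ± 0.07, 1.12 ± 0.07 and 0.98 ± 0.07. *Cdc37*, which brings kinases to HSP90, was called higher with CpG (0.62 ± 0.06 and 0.55 ± 0.06) and not with CL097 (0.37 ± 0.07). *Bag3*, a heat shock gene, was not called, at 0.06 ± 0.22, -0.17 ± 0.22 and -0.31 ± 0.23.

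Among 16 genes of prefoldin and CCT partners, 7, 5 and 3 (43.8%, 31.2% and 18.8%) were called higher and 2, 1 and 1 (12.5%, 6.25% and 6.25%) lower, the shares called higher in Tlr997 and Tlr779 being near those of all genes, with medians of 0.33, 0.36 and 0.01 beside 0.04, 0.07 and -0.02 for all genes. The prefoldin subunits went both ways, as *Pfdn4* and *Pfdn2* rose by 2.18 ± 0.13 and 1.82 ± 0.07 in Tlr9het, while *Pfdn5* was at -1.07 ± 0.10. Of 15 mitochondrial protein quality control genes, 8, 9 and 8 (53.3%, 60% and 53.3%) were called higher and 0 lower, with *Pam16*, a regulator of the import motor, rising by 2.02 ± 0.16, 1.42 ± 0.16 and 1.03 ± 0.23. The 7 chaperones of the endoplasmic reticulum that the symbol rule left out went both ways, with 2 (28.6%) higher in each response and 2, 3 and 3 (28.6%, 42.9% and 42.9%) lower. *Dnajb9* rose by 1.77 ± 0.08, 1.56 ± 0.08 and 0.86 ± 0.13, and *Hsp90b1* (GRP94), which TLRs need to fold, was at -0.96 ± 0.08, -0.82 ± 0.08 and -0.62 ± 0.07.

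Of 4 heat shock factor genes, *Hsf1* and *Hsf2* could be tested, and *Hsf4* and *Hsf5* could not. *Hsf1* rose by 0.67 ± 0.07, 0.92 ± 0.07 and 0.59 ± 0.11 and *Hsf2* by 1.18 ± 0.13, 1.63 ± 0.13 and 1.52 ± 0.19. With CpG, the *Hsf2* level of Tlr997 also exceeded that of Tlr9het, by 0.58 ± 0.13 (adjusted p = 0.016), although the difference of the CpG responses themselves did not pass (0.45 ± 0.18, adjusted p = 0.238). *Hsbp1*, which encodes a protein that binds heat shock factor and not a factor, was at -0.26 ± 0.11, -0.34 ± 0.11 and -0.28 ± 0.08 and was not called. mRNA levels of a factor do not report its activity, and protein was not measured in these files.

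Whether the TIR domain changed the chaperone genes was read from 3 comparisons within the *Tlr7*-/- arm, which share libraries with the CpG responses and with each other. With CpG, 0 of 59 members were called between Tlr997 and Tlr9het, beside 1.25% of all genes higher and 1.47% lower, and limma gave an unadjusted p under 0.05 for 7 members (11.9%) and 19% of all genes. Without stimulation, 0 were called, beside 0.0174% and 0% of all genes, with 8 members (13.6%) and 10.8% of all genes at an unadjusted p under 0.05. For the difference of the CpG responses, 0 were called, beside 0.687% and 0.861%, with 6 members (10.2%) and 16% of all genes at an unadjusted p under 0.05. Outside the members, 1 of the 28 listed cochaperones was called lower in this difference and 0 higher. Between the genotypes with CpG and without, 0 of the 28 were called. The 95% interval lay entirely within ±0.5 for 45 of 59 members with CpG, 42 without and 34 for the difference of responses, and its median half-width was 0.18, 0.18 and 0.26.

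The nearest to a difference were *Dnajc9* and *Hsp90ab1*. With CpG, the *Dnajc9* level of Tlr997 exceeded that of Tlr9het by 0.32 ± 0.08 (adjusted p = 0.0428, 95% interval 0.14 to 0.50), which passed the adjusted p but not the fold, and its libraries did not overlap. The CpG response of *Hsp90ab1* was 0.46 ± 0.15 larger in Tlr997 (adjusted p = 0.145, 95% interval 0.14 to 0.78). Its ranks with CpG were 2, 2 and 3 in Tlr997 and 3, 3 and 3 in Tlr9het, so with CpG the genotypes differed by 1 step of rank in replicates 1 and 2 and by none in replicate 3. For the other abundant members the intervals of the difference of responses were narrow, -0.24 to 0.15 for *Hsp90aa1*, -0.27 to 0.22 for *Hspa8*, -0.39 to 0.04 for *Hspd1* and -0.26 to 0.04 for *Cct3*. They were wide for low genes, -0.97 to 1.61 for *Hspa1b* and -2.57 to 4.80 for *Dnaja4*, whose value in replicate 3 of unstimulated Tlr997 was -5.13 log2 CPM against 1.45 and 0.25 in the others.

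**Figure D4:**
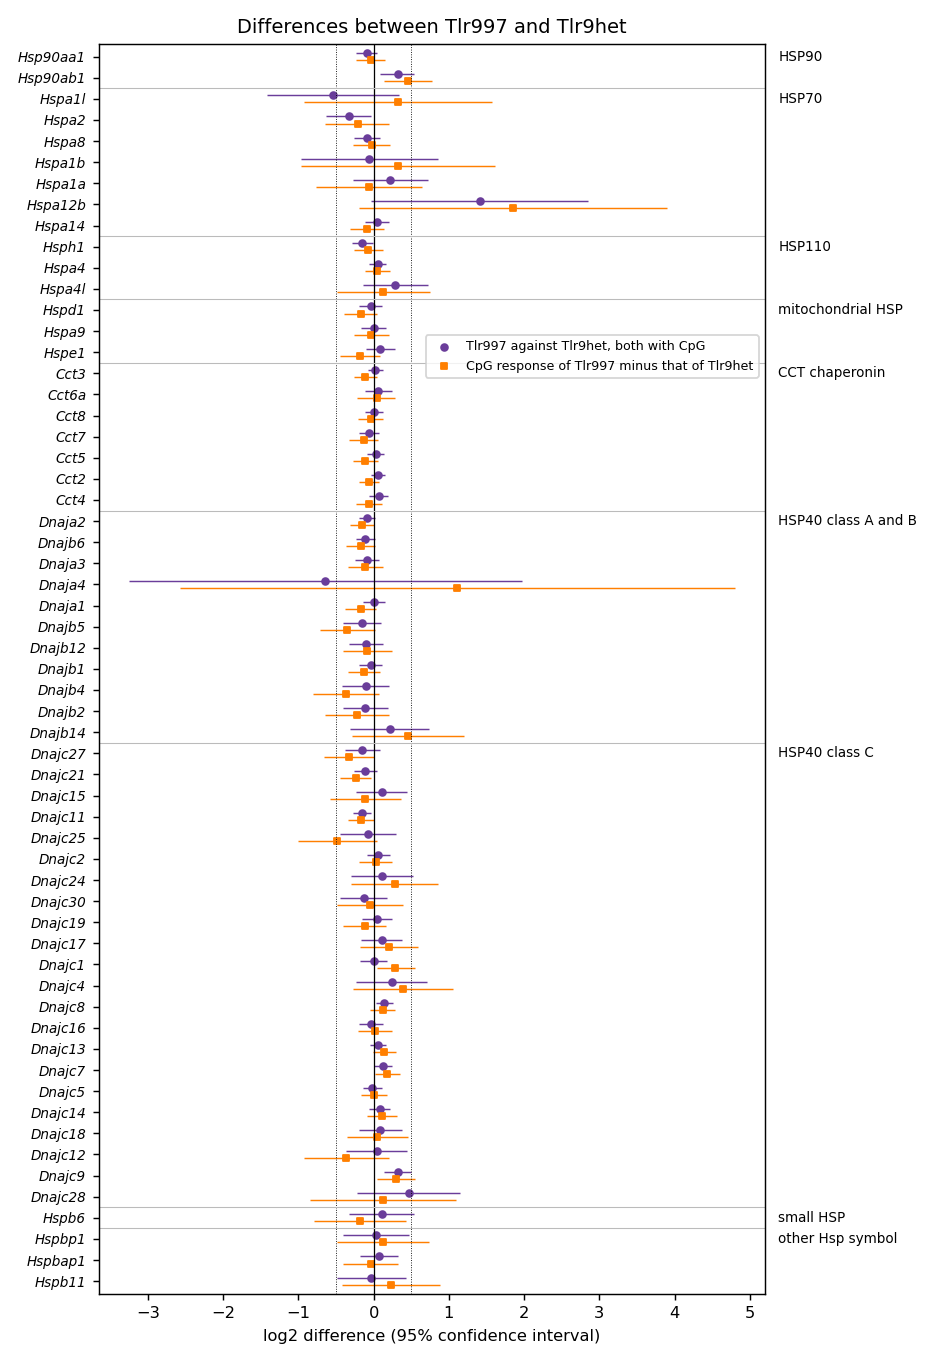
Log2 difference with its 95% confidence interval for each tested member, for Tlr997 against Tlr9het with CpG (circles) and for the CpG response of Tlr997 minus that of Tlr9het (squares). Dotted lines mark ±0.5. Most intervals cross 0 and stay within the dotted lines, none of the members was called, and the widest intervals belong to the low genes *Dnaja4*, *Hspa12b*, *Hspa1b* and *Hspa1l*.

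Annotation limits some of these values. By 75-base windows of GENCODE M21 transcripts, 6 members shared over 20% of their sequence with another annotated gene, among them *Hsp90aa1* (42.8%, with 3 genes), *Hspa8* (32.8%, with 12), *Hspd1* (29.6%, with 4, mainly the pseudogene *Hspd1-ps3*) and *Hspb1* (46.4%, with the pseudogene *Hsp25-ps1*). *Hspe1* and *Hspd1* have overlapping exons on opposite strands, but the libraries were stranded. How multiply mapped reads were counted is not given in the sources used here.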

How the data were processed

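Stranded mRNA libraries of bead-purified splenic B cells (6 groups of 3, mice per genotype 3) were deposited as log2 CPM per gene. The authors aligned reads to mm10 with STAR, counted them with featureCounts, and made the log2 values by quantile normalization and voom in limma. The submitters' processing notes name STAR 2.6.1a, Subread 2.0.1, Trim Galore 0.6.5 and FastQC 0.11.7. Counts were not used here, so depth is unknown and no counting interval can be given. Deposited log2 values contain voom's offset, which understates changes of low genes. Of 6614 genes that stayed below -4 log2 CPM throughout the 12 *Tlr7*-/- libraries, 6306 had 1 value per replicate number. That value differed between genes, as in *Cct8l1* (-4.98, -5.19 and -4.98 in replicates 1, 2 and 3 of every group) and *Dnajc22* (-5.03, -5.03 and -5.10). An offset per library alone would not differ between genes. *Cct8l1* and *Dnajc22* both averaged -5.05 over the 3 replicates of every group, and *Hspb3* was at -5.05 in every library. Whether genes were adjusted by replicate number before deposit is not stated in the sources used here and was not tested. The main fit held no term for replicate number. If such an adjustment was made, the SEs, intervals and p-values of this fit would be too small, and the replicate correlations too high. Quantile normalization makes values relative within a library.

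Genes over 0 log2 CPM in at least 3 libraries of an arm were tested with limma 3.58.1 in R 4.3.3, with a variance trend, on the 12 libraries of the *Tlr7*-/- arm and the 6 of the *Tlr779* arm separately, and p-values were adjusted by Benjamini-Hochberg over all genes tested. A call needed both a log2 fold change beyond ±0.5 and an adjusted p under 0.05. Intervals are 95%. The fit was tested on simulated data. Titles gave the groups. The labels give 3 mice per genotype but do not say that each library came from 1 mouse, so p-values measure the spread between these libraries, which may be partly technical. Same-numbered libraries deviated together in Tlr9het (r = 0.524, 0.27 and 0.514) and Tlr779 (0.219, 0.413 and 0.284), but in Tlr997 the values were 0.394, 0.066 and 0.036. No gene-level value tests the *Tlr9*-/- label of the Tlr779 mice.

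The members and lists were chosen with earlier results of these data known. A fixed set of 20 members was always named, with up to 8 of the largest and 8 of the smallest called changes per comparison. *Dnaja2*, *Dnaja3*, *Dnaja4*, *Dnajb6*, *Dnajc2*, *Dnajc5*, *Dnajc7*, *Dnajc13*, *Dnajc19*, *Dnajc30*, *Hspa2*, *Hspa14* and *Hspb6* were named after their values were seen. Exon lengths, overlaps and 75-base sharing came from GENCODE M21 (76 of 76 members matched), promoters from RefSeq (GRCm38.p6). Columns of other samples left unused numbered 0. Alternatives were other filters, a pseudocount of 1 CPM, other fold thresholds, other sample sets, array weights, no variance trend, replicate blocks and leaving out each library.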

Additional observations from a re-analysis of the deposited data

How the results depend on the processing

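Of 1567 values of 89 single-member results under the alternatives, 1494 kept direction and side of the threshold, 62 lost the call, 11 gained it and 0 reversed. All 89 came from the 3 responses and none from the comparisons between genotypes. They were the fixed set and the most extreme called members, a choice that makes few lost calls likely. Genes called numbered 6649, 6387, 5133, 313, 2 and 178 for the CpG responses of Tlr9het and Tlr997, the CL097 response of Tlr779, Tlr997 against Tlr9het with CpG and unstimulated, and the difference of CpG responses. With a fold over 1 they were 4059, 3768, 2581, 74 and 46 (all but the unstimulated comparison), with members called higher at 21, 22 and 10 and lower at 3, 4 and 3 in the 3 responses. By adjusted p alone, members called lower were 11 in Tlr9het and 8 in Tlr779, genes called between genotypes with CpG 680, and members higher there 1. With no filter, genes called were 187 between genotypes with CpG, 0 unstimulated and 78 for the difference of responses. Array weights gave 485 with CpG and 377 for the difference, only the groups compared gave 0 unstimulated, and no variance trend gave 98 for the difference. The replicate block within genotype gave 328 genes for the difference of responses against 178 without it. It gained the call of *Hspa1b* and lost that of *Dnajb14* in Tlr9het, and the cause was not tested.

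Leaving out 1 library each gave 6416 to 6521, 6178 to 6473 and 4700 to 5088 genes called in the responses, 187 to 249 between genotypes with CpG, 2 to 4 unstimulated and 87 to 295 for the difference. The count with CpG was 187 without Tlr9het CpG replicate 1. The unstimulated count was 4 without Tlr997 replicate 2 or 3. The count for the difference was 295 without unstimulated Tlr997 replicate 3, 101, 101 and 90 without Tlr9het CpG replicates 1, 2 and 3, and 87 without unstimulated Tlr9het replicate 1. Members called higher ranged from 31 to 33, 32 to 36 and 26 to 28, and lower from 6 to 7, 8 to 8 and 4 to 6. Testing with no filter, where more genes were tested, lost the calls of *Hspa1a*, *Hspa1b* and *Dnajc12* in Tlr779 (adjusted p 0.0791, 0.0827 and 0.0733), of *Hspa1a* and *Hspa1b* in Tlr997 (0.0598 and 0.0736) and of *Dnajb14* in Tlr9het (0.0737). TMM and DESeq2 scaling need counts and were not run. For the difference of responses, restricting to the groups compared leaves the same 12 libraries and was not run.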
